A study of Mus musculus with 11 samples.

Results

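The cytosolic ribosomal protein genes are described here in mouse pancreatic acinar cells that received siRNAs against Arid1a, EGF, both or neither. They were the count-table rows whose symbol is Rpl or Rps followed by a number with at most a short suffix, or Rplp0, Rplp1 or Rplp2. Of 23284 genes listed, 83 matched, and 79 reached a mean of 1 CPM, the reads of a gene scaled to the size of its library, over the 11 libraries. These 79 genes, 48 of the large and 31 of the small subunit, were all among the 13343 genes with enough reads to be tested (57.3% of those listed). The 4 rows below the threshold were Rpl10l, Rpl39l, Rps4y2 and Rpl26, and Rpl26 had 3 reads in all libraries together. The 4 rows just above it were Rpl36a at 1.80, Rpl19 at 1.89, Rpl3l at 2.08 and Rps27 at 2.16 CPM.

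The cells were of the line 266-6, which still makes digestive enzymes, and the study asked how EGF receptor signalling and ARID1A, a subunit of a SWI/SNF chromatin remodelling complex, act together on RNA levels. Transfected cells of all groups were kept for 48 h and starved of serum overnight. The 4 groups were Arid1a siRNAs at 25 nM with EGF at 40 ng/ml for 8 h (n = 3), Arid1a siRNAs at 25 nM with the 0.1% BSA vehicle for 8 h (n = 3), a non-targeting siRNA with EGF at 40 ng/ml for 8 h (n = 3), and the non-targeting siRNA with vehicle (n = 2). They are called Arid1a siRNAs with EGF, Arid1a siRNAs without EGF, control siRNA with EGF and control siRNA without EGF. The labels do not say whether the replicates are separate cultures, so the p-values cover the spread among these libraries, and that spread may be technical.

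Ribosomal proteins clothe the rRNA core of both ribosomal subunits, and each is needed in about equal number, so their mRNAs are usually made and translated together. Most of these mRNAs begin with a short run of pyrimidines, the 5′ terminal oligopyrimidine (TOP) motif, through which mTORC1 and the RNA-binding protein LARP1 control their translation. An acinar cell secretes large amounts of enzyme and holds dense arrays of ribosomes on its endoplasmic reticulum. The genes have many processed pseudogenes, intronless copies spread over the genome, which makes their reads hard to place.

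RefSeq start windows (GRCm38.p6, 40 bases before to 20 bases after the annotated start) were matched for 59 of the 79 genes. They are printed for 7 of the genes that were lower with the Arid1a siRNAs both without and with EGF, chosen because their longest pyrimidine run spans at least 9 bases. Capitals mark that run wherever it lies, and each sequence reads along the gene's strand with the annotated start at its base 41. The windows are chr11:101442205-101442264 (+) for Rpl27, chr1:39367811-39367870 (+) for Rpl31, chrX:37085203-37085262 (-) for Rpl39 and chr9:64173347-64173406 (+) for Rpl4. Those of Rps18, Rps24 and Rps6 are chr17:33955646-33955705 (-), chr14:24490638-24490697 (+, the first of 2 starts listed) and chr4:86857348-86857407 (-).
Rpl27: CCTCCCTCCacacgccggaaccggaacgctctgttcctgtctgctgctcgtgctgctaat
Rpl31: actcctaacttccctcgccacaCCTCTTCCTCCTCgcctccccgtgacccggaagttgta
Rpl39: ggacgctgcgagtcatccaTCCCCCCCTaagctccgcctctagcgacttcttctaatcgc
Rpl4: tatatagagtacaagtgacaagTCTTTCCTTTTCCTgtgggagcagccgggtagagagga
Rps18: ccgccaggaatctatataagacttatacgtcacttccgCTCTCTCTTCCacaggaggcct
Rps24: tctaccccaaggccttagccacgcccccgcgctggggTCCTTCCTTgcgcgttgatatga
Rps6: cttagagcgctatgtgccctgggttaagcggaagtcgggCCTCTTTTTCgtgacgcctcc

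In these 60 bases, 52.5% of the members' windows held a run of at least 8 pyrimidines, as did 23.6% of the windows of 17492 protein-coding genes. A TOP start, a C at the RefSeq start followed by at least 4 pyrimidines, was read in 20.3% of members' windows and 2.17% of protein-coding ones. Of the genes printed, Rps18 and Rps6 have one, while in Rpl4, Rpl31, Rpl39 and Rpl27 the marked run ends upstream of the annotated start, farthest from it in Rpl27. Over the whole window of 250 bases before and 50 after the start, on either strand, CCGGAAG, a core bound by ETS factors, was present in 37.3% of members' windows and 11.9% of protein-coding ones. AAGATGG, a core bound by YY1, was present in 15.3% and 6.37%, and TATAAA in 10.2% and 13.3%. A match is a description of these letters and not a site of binding.

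The libraries held 10279763 to 19773007 counted reads. The ribosomal protein genes took 1.19, 1.38 and 1.21% of them in the libraries with Arid1a siRNAs and EGF, 1.19, 1.14 and 1.36% with Arid1a siRNAs without EGF, 1.30, 1.42 and 1.33% with control siRNA and EGF, and 1.37 and 1.21% with control siRNA without EGF. The ranges of the 4 groups overlap, and in each Arid1a siRNA group 1 library stands above the other two. As a mean the share was 1.26 ± 0.104% with Arid1a siRNAs and EGF against 1.35 ± 0.0633% with control siRNA and EGF (SD, n = 3 each). It was 1.23 ± 0.113% with Arid1a siRNAs without EGF (SD, n = 3) against 1.29 ± 0.112% with control siRNA without EGF (SD, n = 2).

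**Figure D1:**
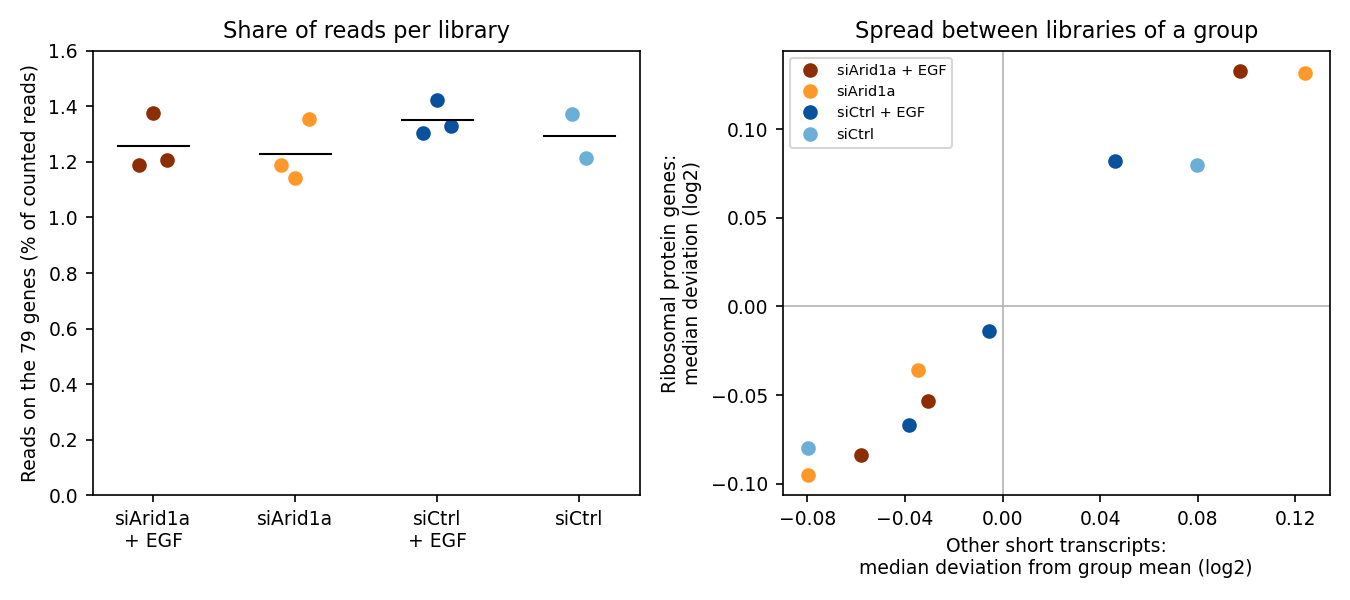
Left, percent of counted reads on the 79 genes in each library (points) with the group mean (line), on an axis from 0. Right, median deviation of the 79 genes from their group mean against that of 809 other genes with short transcripts, per library (log2); the libraries that are high on one axis are high on the other.

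Within a group the members moved together from library to library. Of the 79 genes, 75 lay above their group mean in Arid1a siRNAs with EGF replicate 2, 62 in Arid1a siRNAs without EGF replicate 3, 68 in control siRNA with EGF replicate 2, and 70 in control siRNA without EGF replicate 1. The same 4 libraries stood highest for 809 other tested genes with a transcript under 1000 bases, of which 78.99, 80.7, 70.1 and 79.1% lay above the group mean, and for 76 mitochondrial ribosomal protein genes. Between groups those short genes did not follow the cytosolic ribosomal protein genes: their median log2 change was 0.067 for the Arid1a siRNAs with EGF, 0.011 for the Arid1a siRNAs without EGF, -0.040 for EGF with Arid1a siRNAs and -0.084 for EGF with control siRNA. The mitochondrial ribosomal protein genes leaned as the cytosolic ones did, with smaller medians, which are given below. The part of the library difference in the counts of calls was not tested. Median changes without those 4 libraries are given with each comparison.

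Other facts of the libraries bear on what follows. Arid1a itself had 145, 122 and 152 CPM with Arid1a siRNAs and EGF and 151, 157 and 127 CPM with Arid1a siRNAs without EGF. It had 308, 263 and 300.2 CPM with control siRNA and EGF and 292 and 399.9 CPM with control siRNA without EGF. Every library thus matched the siRNA in its label (log2 -1.06 ± 0.12 with EGF and -1.25 ± 0.13 without, edgeR adjusted p = 2.85e-05 and 2.36e-05). These values do not check the EGF in the labels. Of 19 acinar markers listed, 16 reached 1 CPM, and they summed to 16696 to 18501 CPM with Arid1a siRNAs and EGF, 17788 to 21268 CPM with Arid1a siRNAs without EGF, 15322 to 16585 CPM with control siRNA and EGF and 17442 to 19535 CPM with control siRNA without EGF. Of the 16 tested, 8 were called higher and 4 lower for the Arid1a siRNAs with EGF (50 and 25%, against 23.7 and 23.2% of all genes tested). Without EGF these were 7 and 5 (43.8 and 31.2%, against 18.8 and 20.1%). For EGF 2 were higher and 6 lower with Arid1a siRNAs (12.5 and 37.5%, against 13 and 10.4%). With control siRNA these were 3 and 8 (18.8 and 50%, against 16.8 and 18.8%). Fibroblast markers summed to 282 to 336 CPM with Lum at 0, and immune markers to 5.01 to 9.30 CPM with Cd3e at 0. Endothelial markers reached at most 3.24 CPM with Cdh5 at 0, and islet markers at most 0.0933 CPM with Ins1, Ins2 and Sst at 0. Ductal markers summed to 63.4 to 69.4 CPM with Arid1a siRNAs and EGF, 50.8 to 55.6 CPM with Arid1a siRNAs without EGF, 109 to 119.8 CPM with control siRNA and EGF and 53.8 to 77.3 CPM with control siRNA without EGF, and the part of the acinar and ductal markers in the changes below was not tested. In bulk RNA, fewer cells of a type and less RNA per cell cannot be told apart.

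Levels between genes were compared per length, in the FPKM (fragments scaled to transcript length and library size) of the authors' deposited table, as a mean over 9 libraries. The table's columns for control siRNA without EGF were not used. Rpl8, a protein close to the peptidyl transferase centre, was highest at 2634 FPKM, and Rps15, a small subunit protein, had 1520 FPKM. Rpl3 at 1.23 and the muscle-type paralog Rpl3l at 1.52 FPKM were among the lowest. In the counts 25 of the 79 genes had at least 100 CPM and 28 had under 10 CPM, and 5 genes held 47.6% of all their reads.

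This spread in level went with sequence shared with other genes. For each gene the shortest protein-coding GENCODE transcript linked to a curated RefSeq mRNA was taken, or else the longest protein-coding one. It was cut into 50-base words, and the share of words found in no other GENCODE gene was taken as its unique share. Some chosen transcripts are long, at 5179 bases for Rps15a (93.6% unique) and 3706 bases for Rps20 (92.4% unique). Whether the counted reads come from the chosen transcripts was not tested. Of the 79 genes, 77 shared such a word with at least 1 pseudogene, the median gene with 8 pseudogenes, and 47 had a unique share under 50%. The median level was 5.88 FPKM in the 23 genes with a unique share under 25%, 70.2 FPKM in the 24 between 25 and 50%, 68.9 FPKM in the 21 between 50 and 75%, and 324 FPKM in the 11 at 75% or more. Across the 79 genes Spearman's rho between FPKM and unique share was 0.50, as a description over genes that share libraries and aligner, and 0.42 and 0.57 with words of 36 and 75 bases. Rpl8 was unique in 92.1% of its words, whereas Rps6 at 4.45 FPKM was unique in 15.4% and Rpl3 in 14.4%. Rpl3l is an exception, fully unique and at 1.52 FPKM.

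**Figure D2:**
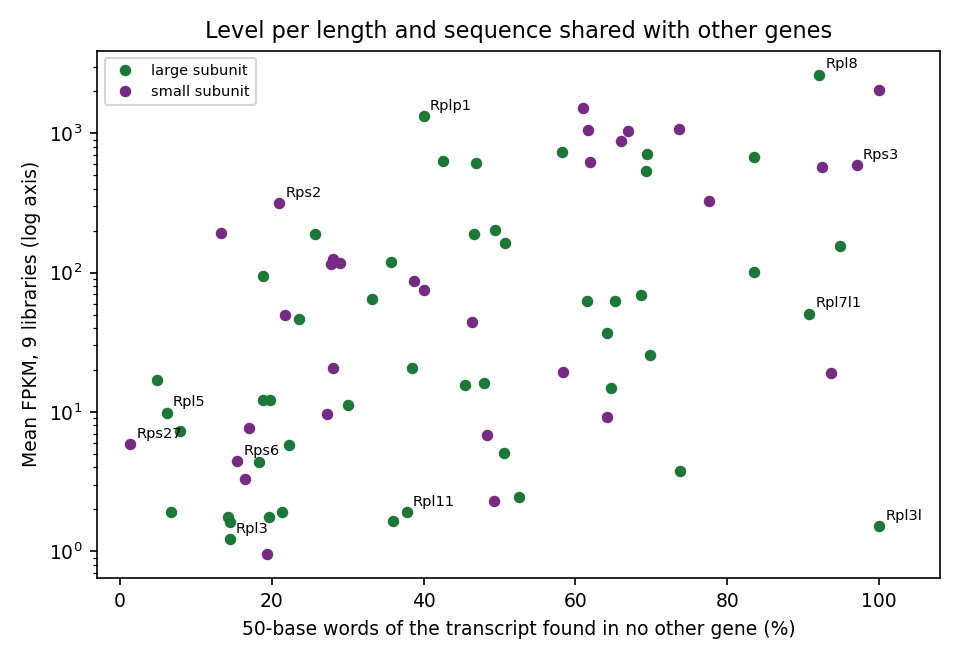
Mean FPKM of each of the 79 genes over 9 libraries (log axis) against the percent of its 50-base words found in no other gene; green marks the large and purple the small subunit. Genes with few unique words lie mostly low, and Rpl8 stands at the upper right.

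The counts and FPKM of a gene can also part. Rpl34 had 8.38 CPM but 203 FPKM, and Rpl26, outside the set by its 3 reads, had 48.1 FPKM. A fold change of such a gene rests on the few reads counted for it. Reads that a gene shares with its near copies cannot be told apart, nor can those of antisense RNA, as the library kit does not mark strand. The values of single members are uncertain to that extent.

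With the Arid1a siRNAs in the presence of EGF, most ribosomal protein genes had lower values. Here 30 of 79 genes were called lower (38.0%) and 1 higher by edgeR's quasi-likelihood test at a Benjamini-Hochberg adjusted p under 0.05, where 23.2% of all genes tested were called lower and 23.7% higher. This excess over all genes was lost when any 1 of 3 libraries was left out: 17.7% of members against 19.9% and 19.7% of all genes were called lower without Arid1a siRNAs with EGF replicate 1 or 3, and 20.3% against 20.6% without control siRNA with EGF replicate 2. Of the 79 genes 68 had a log2 change below 0, with a median of -0.24, where the median of all genes was 0.00. Large and small subunit genes had 17 of 48 and 13 of 31 lower and medians of -0.24 and -0.23. By unique share, from low to high, the medians were -0.24, -0.25, -0.23 and -0.19, with 9 of 23, 10 of 24, 6 of 21 and 5 of 11 genes called lower. The log2 changes ranged from -0.60 for Rps6 to 0.46 for Rps27, and Rps27 did not pass the test (edgeR adjusted p = 0.147).

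Without EGF the Arid1a siRNAs gave a smaller count. There 16 genes were called lower (20.3%) and 1 higher, against 20.1% and 18.8% of all genes tested, so the share called lower is that of genes in general, while the share called higher is below it. The median log2 change was -0.19, where that of all genes was -0.01, and 66 of the 79 genes lay below 0. Over the 2 comparisons, which share no library, 73 of 79 genes had the same sign, as did 83.3% of all genes tested. Pearson's r over the 79 genes was 0.69 and Spearman's rho 0.72, given as a description over genes that share libraries within each comparison. Of the calls, 14 were common to both, which is 82.4% of the 17 without EGF and 45.2% of the 31 with EGF, where 38.9% and 46.9% of all genes tested were called in the same comparisons. Over all genes tested the shared calls made up 81.6% of those without EGF and 67.6% of those with EGF, so the members' overlap was near the first share and below the second.

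**Figure D3:**
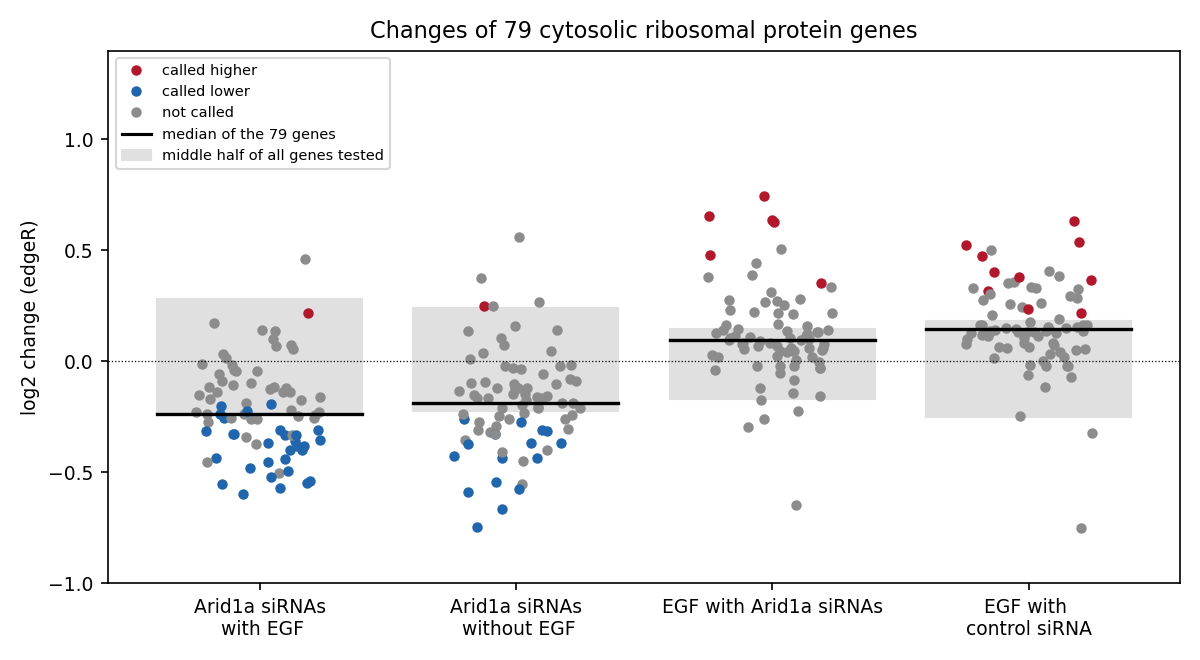
log2 change of each of the 79 genes (points, edgeR) in 4 comparisons; red and blue points were called higher and lower, black lines are the medians of the 79 genes and grey boxes span all genes tested from the lower to the upper quartile. The medians are -0.24, -0.19, 0.10 and 0.14 from left to right.

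Rpl32, Rpl7, Rps4x and Rpl31 were called lower with the Arid1a siRNAs both without and with EGF and kept both calls in each alternative fit of the counts. Rpl32, a large subunit protein, had 184, 217 and 194 CPM with Arid1a siRNAs and EGF and 199, 187 and 224 CPM with Arid1a siRNAs without EGF, against 276, 288 and 291 CPM with control siRNA and EGF and 288 and 257 CPM with control siRNA without EGF. Each of its 6 Arid1a siRNA libraries lay below each of its 5 control siRNA libraries, as in 8 of the 79 genes. How many of all genes do so was not counted. With EGF, every Arid1a siRNA library lay below every control siRNA library in 34 of 79 members and 3844 of 13343 genes tested. Without EGF these were 22 and 3726. The log2 change of Rpl32 was -0.52 ± 0.08 with EGF (SE, edgeR adjusted p = 5.87e-05) and -0.42 ± 0.08 without (edgeR adjusted p = 0.00109). Rpl7 had 133, 147 and 137 CPM with Arid1a siRNAs and EGF and 133, 132 and 158 CPM with Arid1a siRNAs without EGF, against 183, 186 and 183 CPM with control siRNA and EGF and 177 and 174 CPM with control siRNA without EGF. Its groups did not overlap, at log2 -0.40 ± 0.07 with EGF (edgeR adjusted p = 0.000193) and -0.32 ± 0.07 without (edgeR adjusted p = 0.0037).

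Rps4x, the X-linked form of a small subunit protein, had 79.9, 86.4 and 75.5 CPM with Arid1a siRNAs and EGF and 78.3, 73.1 and 82.6 CPM with Arid1a siRNAs without EGF, against 102, 109.5 and 103 CPM with control siRNA and EGF and 106 and 95.4 CPM with control siRNA without EGF. All Arid1a siRNA libraries were lower, by log2 -0.38 ± 0.07 with EGF (edgeR adjusted p = 0.000365) and -0.37 ± 0.08 without (edgeR adjusted p = 0.00139). Rpl31, a protein at the rim of the exit tunnel whose upstream pyrimidine run is printed above, had 8.17, 9.51 and 8.20 CPM with Arid1a siRNAs and EGF and 7.09, 6.33 and 8.26 CPM with Arid1a siRNAs without EGF, against 12.5, 13.2 and 11.9 CPM with control siRNA and EGF and 11.7 and 10.96 CPM with control siRNA without EGF. It too had no overlap, at log2 -0.54 ± 0.12 with EGF (edgeR adjusted p = 0.00157) and -0.67 ± 0.13 without (edgeR adjusted p = 0.00118). Its unique share was 30.0%, so most of its 50-base words also occur in other genes.

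Rpl39, a very small protein of the exit tunnel wall, had 21.5, 24.9 and 21.8 CPM with Arid1a siRNAs and EGF and 23.5, 19.8 and 26.8 CPM with Arid1a siRNAs without EGF, against 31.8, 35.3 and 32.8 CPM with control siRNA and EGF and 37.7 and 29.7 CPM with control siRNA without EGF. Rpl37a, another large subunit protein, had 21.6, 28.1 and 21.5 CPM with Arid1a siRNAs and EGF and 22.8, 23.2 and 28.0 CPM with Arid1a siRNAs without EGF, against 34.6, 39.5 and 31.6 CPM with control siRNA and EGF and 35.1 and 31.3 CPM with control siRNA without EGF. For both genes all Arid1a siRNA libraries were the lower ones. The log2 changes with EGF were -0.55 ± 0.12 for Rpl39 (edgeR adjusted p = 0.00126) and -0.57 ± 0.12 for Rpl37a (edgeR adjusted p = 0.00126). Without EGF they were -0.54 ± 0.13 for Rpl39 (edgeR adjusted p = 0.00369) and -0.44 ± 0.13 for Rpl37a (edgeR adjusted p = 0.0175), and both calls without EGF were lost without control siRNA replicate 1 (highest edgeR adjusted p = 0.0814 for Rpl39), that of Rpl37a also without Arid1a siRNAs replicate 1 or 2 (highest 0.134).

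Rps3 and Rpl4 were among the most heavily read members. Rps3, which lines the mRNA entry channel of the small subunit, had 957, 1104 and 975 CPM with Arid1a siRNAs and EGF and 954, 897 and 1090 CPM with Arid1a siRNAs without EGF, against 1223, 1393 and 1265 CPM with control siRNA and EGF and 1296 and 1071 CPM with control siRNA without EGF. Its groups overlap without EGF and not with it, at log2 -0.27 ± 0.10 (edgeR adjusted p = 0.0376) and -0.35 ± 0.09 (edgeR adjusted p = 0.00409). The call without EGF was lost without control siRNA replicate 1, Arid1a siRNAs replicate 1 or 2, or Arid1a siRNAs with EGF replicate 3 (highest edgeR adjusted p = 0.41). Rpl4, part of the exit tunnel wall, had 831, 929 and 881 CPM with Arid1a siRNAs and EGF and 752, 731 and 866 CPM with Arid1a siRNAs without EGF, against 1064, 1127 and 1121 CPM with control siRNA and EGF and 978 and 895 CPM with control siRNA without EGF. Each Arid1a siRNA library was lower than the control siRNA libraries of the same treatment, by log2 -0.33 ± 0.07 with EGF (edgeR adjusted p = 0.000973) and -0.26 ± 0.07 without (edgeR adjusted p = 0.0124), the call without EGF being lost without control siRNA replicate 1 or Arid1a siRNAs replicate 1 or 2 (highest edgeR adjusted p = 0.125). Rpl8, the highest per length, had a log2 change of -0.18 ± 0.08 with EGF and -0.16 ± 0.09 without, and did not pass (edgeR adjusted p = 0.0938 and 0.194). With the replicate block in the 2 groups with EGF, a fit of 6 libraries with 2 residual degrees of freedom, Rpl8 was called lower at log2 -0.17 (edgeR adjusted p = 4.93e-11). That block was added after the data were seen, and a shared replicate number is not shown to mark a pair. Its calls here and below are not counted among the 30 genes called lower.

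Rps6, the substrate of S6 kinase below mTORC1, had the lowest log2 change with EGF. It had 6.76, 9.21 and 7.11 CPM with Arid1a siRNAs and EGF and 6.34, 6.57 and 6.96 CPM with Arid1a siRNAs without EGF, against 11.4, 12.6 and 10.8 CPM with control siRNA and EGF and 9.15 and 8.74 CPM with control siRNA without EGF. The change was log2 -0.60 ± 0.13 with EGF (edgeR adjusted p = 0.00136) and -0.44 ± 0.15 without (edgeR adjusted p = 0.028), the call without EGF being lost without control siRNA replicate 1 or 2 or Arid1a siRNAs replicate 1 or 2 (highest edgeR adjusted p = 0.135). Rps14, Rps24, Rps18 and Rpl27 were also lower in both, at log2 -0.33 ± 0.10, -0.37 ± 0.10, -0.22 ± 0.08 and -0.44 ± 0.16 with EGF and -0.37 ± 0.11, -0.33 ± 0.12, -0.31 ± 0.09 and -0.75 ± 0.19 without. All 4 lost the call without EGF when control siRNA replicate 1 was left out (highest edgeR adjusted p = 0.464 for Rps24 over the libraries left out), and all 4 lost the call with EGF when Arid1a siRNAs with EGF replicate 1 was left out (highest 0.181 for Rpl27). Loss of RPS14 in human bone marrow is known from a myelodysplastic syndrome, and RPS24 is a gene of human Diamond-Blackfan anaemia. Rpl34 was called lower without EGF (log2 -0.58 ± 0.19, edgeR adjusted p = 0.0251) and not with it (log2 -0.37 ± 0.16, edgeR adjusted p = 0.0687, and 0.00311 with the replicate block), and the call without EGF was lost without control siRNA replicate 1 or Arid1a siRNAs replicate 2 or 3 (highest edgeR adjusted p = 0.128).

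**Figure D4:**
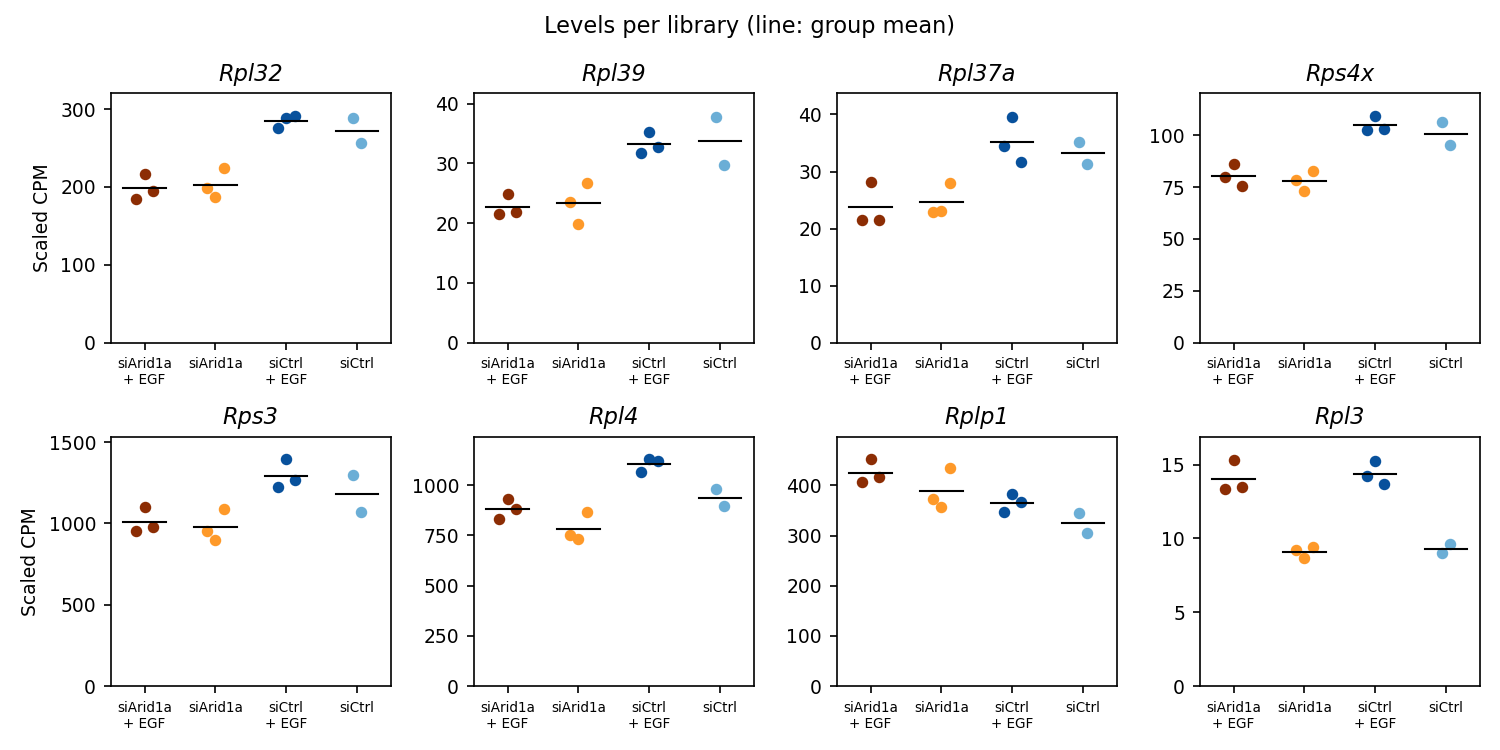
Scaled CPM of 8 genes in each library (points) with the group mean (line), on axes from 0. Rpl32, Rpl39, Rpl37a and Rps4x lie lower in every Arid1a siRNA library than in every control siRNA library, while Rpl3 follows EGF.

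In the stalk, which draws translation factors to the ribosome, Rplp1 was the 1 gene called higher in each comparison, with 407, 452 and 417 CPM with Arid1a siRNAs and EGF and 373, 357 and 434 CPM with Arid1a siRNAs without EGF, against 346, 383 and 367 CPM with control siRNA and EGF and 346 and 306 CPM with control siRNA without EGF. The log2 change was 0.22 ± 0.07 with EGF (edgeR adjusted p = 0.0264) and 0.25 ± 0.08 without (edgeR adjusted p = 0.0286). The call with EGF was lost without control siRNA with EGF replicate 1 or 3 or Arid1a siRNAs with EGF replicate 2 (highest edgeR adjusted p = 0.112), and that without EGF without control siRNA replicate 2 or Arid1a siRNAs replicate 3 (highest 0.225). Its partners Rplp0, at log2 0.06 ± 0.06 with EGF and 0.14 ± 0.07 without, and Rplp2, at -0.11 ± 0.09 and -0.10 ± 0.10, did not pass. With the replicate block in the 2 groups with EGF, Rplp0 was called higher (edgeR adjusted p = 0.0391) and Rplp2 lower (edgeR adjusted p = 0.00685).

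Rpl5 and Rpl11 form a particle with the small rRNA of the large subunit that can bind the p53 regulator MDM2. Rpl5 was lower with the Arid1a siRNAs and EGF, at 3.804, 4.17 and 4.35 CPM against 5.29, 5.43 and 6.69 CPM with control siRNA and EGF (log2 -0.50 ± 0.15, edgeR adjusted p = 0.0163). It was not called without control siRNA with EGF replicate 3 or Arid1a siRNAs with EGF replicate 1 (highest edgeR adjusted p = 0.0742). Without EGF it stood at log2 -0.08 ± 0.17, and Rpl11 did not pass in either comparison (log2 -0.24 ± 0.21 with EGF and -0.32 ± 0.23 without). Among paralogs, Rpl22l1 was lower with EGF (log2 -0.40 ± 0.15, edgeR adjusted p = 0.0448, lost in 7 of 11 fits that left out a library), while Rps27l at -0.23 ± 0.09, Rpl7l1 at -0.14 ± 0.07 and Rpl3l at 0.07 ± 0.31 did not pass. With the replicate block Rps27l and Rpl7l1 were called lower (edgeR adjusted p = 1.91e-06 and 0.00209). Rpl11 and Rpl3l did not pass with that block (edgeR adjusted p = 0.194 and 0.797).

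Called with EGF and not without it were 17 genes, all lower, at log2 -0.55 to -0.19. Of the calls with EGF, 14 of 31 among members and 4235 of 6261 among all genes tested were also made without EGF. Rpl15, a large subunit protein, had 41.4, 53.2 and 43.9 CPM with Arid1a siRNAs and EGF, against 58.5, 65.0 and 64.0 CPM with control siRNA and EGF (log2 -0.44 ± 0.11, edgeR adjusted p = 0.00359). Rpl7a, also of the large subunit, had 66.5, 73.3 and 65.1 CPM against 83.5, 90.7 and 79.3 CPM (log2 -0.31 ± 0.07, edgeR adjusted p = 0.0015), and Rps3a, of the small subunit, had 81.85, 102.4 and 87.0 CPM against 108.7, 119.9 and 112.5 CPM (log2 -0.33 ± 0.09, edgeR adjusted p = 0.00786). In these 3 genes every library with Arid1a siRNAs and EGF was lower than every one with control siRNA and EGF. That was so in 34 of the 79 members and 3844 of the 13343 genes tested. The calls of these 3 genes were kept in each alternative fit of the counts. Without EGF their log2 changes were -0.27 ± 0.12, -0.19 ± 0.07 and -0.24 ± 0.10 and did not pass (lowest edgeR adjusted p = 0.0562), and a gene called in 1 comparison only is not thereby shown to differ between them. Among members named for their roles, Rps19, the first gene found in human Diamond-Blackfan anaemia, had log2 changes of -0.11 ± 0.18 with EGF and -0.24 ± 0.20 without, and Rps26 of -0.09 ± 0.08 and -0.02 ± 0.09, none of which passed. Rps26 was called lower with EGF under the replicate block (edgeR adjusted p = 0.018), and Rps19 was not called (edgeR adjusted p = 0.754).

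**Figure D5:**
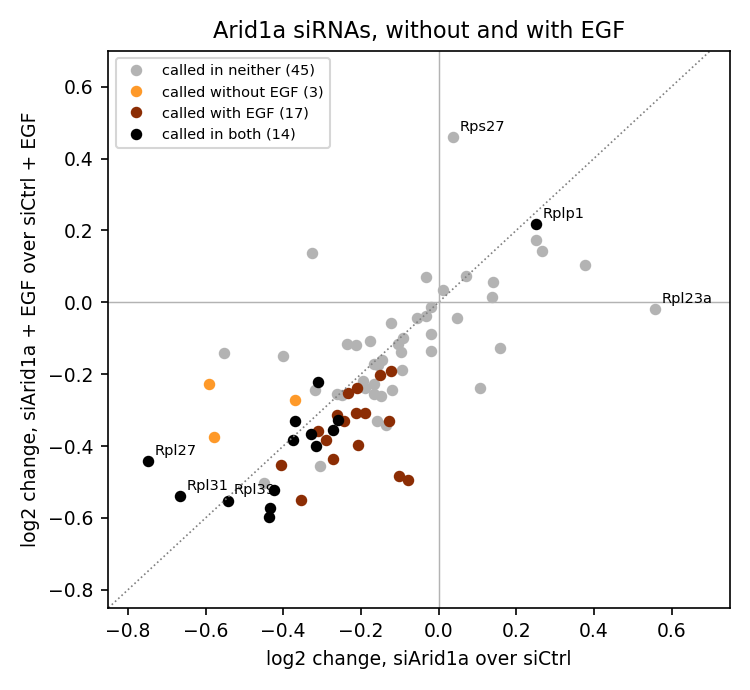
log2 change of each of the 79 genes with the Arid1a siRNAs without EGF (x axis) and with EGF (y axis), coloured by the comparisons in which the gene was called; the dotted line marks equal changes. Most genes lie at the lower left, with 14 called in both, of which Rplp1 alone is higher.

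These counts move with single libraries. With EGF, 14 members were called lower without Arid1a siRNAs with EGF replicate 1 or replicate 3 and 16 without control siRNA with EGF replicate 2, the fits in which the share was not above that of all genes, and 12 of the 31 calls were kept in each alternative fit of the counts. Without EGF, 4 were called lower without control siRNA replicate 1 (median log2 -0.071), 8 and 7 without Arid1a siRNAs replicate 1 and 2, and 25 without Arid1a siRNAs replicate 3, and 4 of the 17 calls were kept. These are 5.06, 10.1, 8.86 and 31.6% of members, against 14.8, 16.2, 15.9 and 19.4% of all genes in the same fits. Without the 4 libraries that stood highest in short transcripts, the median log2 change of the members was -0.25 with EGF and -0.13 without. Those of all genes were 0.004 and -0.003. The 4 libraries also stood highest for the members in their groups, and 1 control siRNA library without EGF was left. No count of calls is given here for that reason, and those listed among the settings below carry the same limit. In the 2 groups with EGF same-numbered libraries deviated together, and replicate 2 stood highest for the members in both. A block for the replicate number in those groups alone was added after this was seen. It gave 3 higher and 48 lower (60.8% lower, against 32.4% of all genes in that fit). The planned block over all libraries gave 1 higher and 25 lower (31.6% lower, against 21.6% of all genes).

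With EGF and control siRNA, few members were called. Of the 79 genes 10 were called higher by edgeR's quasi-likelihood test (12.7%) and 0 lower, where 16.8% of all genes tested were called higher and 18.8% lower, so over all libraries the share called higher was not above that of genes in general. DESeq2 called 7 higher (8.86%) and 0 lower, against 16.2% and 16.4% of all genes. At an unadjusted edgeR p under 0.05 there were 13 higher and 1 lower, where 5919 of the 13343 genes tested passed in either direction. The median log2 change was 0.14 with 69 of 79 genes above 0, where all genes had a median of -0.03. This comparison shares the control siRNA libraries with EGF with the Arid1a comparison above. The median was 0.29 in the 23 genes with the lowest unique share and 0.10 in the 11 with the highest.

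Rpl3, a protein next to the peptidyl transferase centre, rose most of the called genes. It had 14.2, 15.2 and 13.7 CPM with control siRNA and EGF against 9.001 and 9.60 CPM with control siRNA without EGF, and 13.3, 15.3 and 13.5 CPM with Arid1a siRNAs and EGF against 9.23, 8.66 and 9.40 CPM with Arid1a siRNAs without EGF. All libraries with EGF were above all without it, at log2 0.63 ± 0.11 with control siRNA (edgeR adjusted p = 0.000451) and 0.63 ± 0.10 with Arid1a siRNAs (edgeR adjusted p = 0.000482). With control siRNA every EGF library lay above those without EGF in 34 of 79 members and 3424 of 13343 genes tested. With Arid1a siRNAs these were 11 and 2630. The authors' FPKM of Rpl3 also lay apart, at 1.32 to 1.70 with Arid1a siRNAs and EGF against 0.658 to 0.814 with Arid1a siRNAs without EGF.

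Rps27a, made as a fusion with ubiquitin, had 18.8, 19.6 and 20.9 CPM with control siRNA and EGF against 13.9 and 13.6 CPM with control siRNA without EGF, and 16.9, 18.6 and 18.4 CPM with Arid1a siRNAs and EGF against 12.3, 12.4 and 13.9 CPM with Arid1a siRNAs without EGF. The EGF libraries were higher throughout, by log2 0.52 ± 0.10 (edgeR adjusted p = 0.00082) and 0.48 ± 0.09 (edgeR adjusted p = 0.00165). Rpl10a, which forms the stalk beside the exit site of tRNA, had 29.3, 29.9 and 26.3 CPM with control siRNA and EGF against 22.2 and 18.6 CPM with control siRNA without EGF, and 29.4, 30.2 and 26.8 CPM with Arid1a siRNAs and EGF against 23.1, 21.4 and 23.4 CPM with Arid1a siRNAs without EGF. Its log2 changes were 0.47 ± 0.10 (edgeR adjusted p = 0.0021) and 0.35 ± 0.09 (edgeR adjusted p = 0.0125), the call with Arid1a siRNAs being lost without Arid1a siRNAs replicate 2 (edgeR adjusted p = 0.0613).

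Rpl12, at the base of the factor-binding stalk, was called with control siRNA and not with Arid1a siRNAs. It had 18.2, 19.7 and 18.1 CPM with control siRNA and EGF against 14.1 and 11.5 CPM with control siRNA without EGF (log2 0.54 ± 0.11, edgeR adjusted p = 0.00212). With Arid1a siRNAs its log2 change was 0.25 ± 0.11 (edgeR adjusted p = 0.099), and the difference between the 2 EGF responses did not pass (log2 -0.28 ± 0.16, edgeR adjusted p = 0.622). Rpl3, Rps27a, Rpl10a and Rpl12 kept their calls with control siRNA in each alternative fit of the counts. The other 6 called genes were Rpl4, Rpl7l1, Rpl27a, Rpl30, Rps25 and Rps6, at log2 0.22 to 0.40, and all 6 lost the call without control siRNA replicate 2. With EGF and control siRNA, 5 members were called higher without control siRNA with EGF replicate 2 or replicate 3. These are 6.33% of members, against 14.9 and 14.3% of all genes. The median log2 change of the members was 0.07 without control siRNA replicate 2. It was 0.21 without the 4 libraries highest in short transcripts, where that of all genes was -0.02. Those 4 libraries also stood highest for the members in their groups. Leaving them out kept 1 control siRNA library without EGF, the one lower in the members, so no count of calls is given here.

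With the Arid1a siRNAs, EGF raised 6 members (7.59%) and lowered 0 by edgeR's test, against 13% and 10.4% of all genes tested, with a median log2 change of 0.10 and 62 of 79 genes above 0. DESeq2 called 4 higher (5.06%) and 0 lower, against 11.6% and 9.65% of all genes. At an unadjusted edgeR p under 0.05 there were 14 higher and 1 lower, where 4719 of the 13343 genes tested passed in either direction. Beside Rpl3, Rps27a and Rpl10a they were Rpl28, Rpl17 and Rps28, with log2 changes of 0.64 ± 0.18, 0.66 ± 0.22 and 0.75 ± 0.24. These 3 had under 5 CPM in every library with Arid1a siRNAs, and all 3 calls were lost without Arid1a siRNAs replicate 1 or 2 or Arid1a siRNAs with EGF replicate 1 or 2. The mean FPKM of the authors with Arid1a siRNAs and EGF against Arid1a siRNAs without EGF was 2.07 against 2.03 for Rpl28, 1.88 against 1.37 for Rpl17 and 2.50 against 2.54 for Rps28. The count was 2 without Arid1a siRNAs replicate 2, 3 without Arid1a siRNAs with EGF replicate 1 or replicate 2, and 11 without Arid1a siRNAs replicate 3. As shares of members these are 2.53, 3.80 and 13.9%, against 9.76, 9.83 to 11.1 and 12.4% of all genes. Without the 4 libraries highest in short transcripts the median log2 change of the members was 0.08. Over the 2 EGF comparisons, which share no library, 66 of 79 genes had the same sign, as did 82.2% of all genes, and Pearson's r over the members was 0.66.

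The difference between the 2 EGF responses was called for 0 of the 79 genes by edgeR, where 0.944% of all genes tested were called, 0.562% higher and 0.382% lower. DESeq2 also called 0 of them, against 0.704% higher and 0.63% lower of all genes. An unadjusted edgeR p under 0.05 was reached by 0 members and by 1297 of the 13343 genes tested. The median of this difference was -0.05 on the log2 scale, and for Rpl3, Rps27a, Rpl10a and Rpl4 it was -0.0048 ± 0.15, -0.04 ± 0.14, -0.12 ± 0.14 and -0.07 ± 0.10.

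Other genes of the translation apparatus were counted from listed groups. Of 5 ribosomal proteins outside the symbol pattern, Gnb2l1, the scaffold protein RACK1 of the small subunit, had log2 changes of -0.32 ± 0.07 for the Arid1a siRNAs with EGF (edgeR adjusted p = 0.00125), -0.23 ± 0.07 without EGF (edgeR adjusted p = 0.0243) and 0.23 ± 0.08 for EGF with control siRNA (edgeR adjusted p = 0.0273). Rpsa, a small subunit protein, had 2.68, 3.07 and 2.01 CPM with Arid1a siRNAs and EGF against 4.20, 5.55 and 4.54 CPM with control siRNA and EGF (log2 -0.88 ± 0.18, edgeR adjusted p = 0.00107). Rpl36al was lower without EGF (log2 -0.26 ± 0.10, edgeR adjusted p = 0.0463), and Fau did not pass in any comparison. Of 76 mitochondrial ribosomal proteins, 5 were higher and 16 lower when Arid1a siRNAs were given with EGF, and 4 higher and 12 lower when they were given without. EGF left 10 higher and 1 lower in Arid1a siRNA cells, and 16 higher and 2 lower in control siRNA cells. The shares called lower for the Arid1a siRNAs, 21.1% and 15.8%, did not exceed the 23.2% and 20.1% of all genes, and those called higher for EGF, 13.2% and 21.1%, stand against 13% and 16.8%. Their medians leaned as those of the cytosolic genes did. They were log2 -0.08 in both Arid1a comparisons, with 52 of 76 genes below 0 in each. For EGF they were 0.08 with Arid1a siRNAs and 0.06 with control siRNA, with 56 and 55 of 76 genes above 0.

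Factors with the same start motif were counted next. Of 13 genes listed for their TOP mRNAs other than ribosomal proteins, 10 were higher and 1 lower for EGF with control siRNA and 5 and 0 with Arid1a siRNAs, while 1 was higher and 6 lower for the Arid1a siRNAs with EGF and 1 and 4 without EGF. The shares were 76.9 and 38.5% higher in the EGF comparisons, against 16.8 and 13% of all genes, and 46.2 and 30.8% lower in the Arid1a comparisons, against 23.2 and 20.1% of all genes. Pabpc1, the poly(A)-binding protein, changed by log2 0.57 ± 0.06 for EGF with control siRNA (edgeR adjusted p = 2.95e-06) and -0.37 ± 0.05 for the Arid1a siRNAs with EGF (edgeR adjusted p = 2.81e-05). Eif4b, an RNA helicase cofactor, changed by 0.38 ± 0.06 (edgeR adjusted p = 0.000113) and -0.83 ± 0.05 (edgeR adjusted p = 1.69e-08). Both comparisons use the control siRNA libraries with EGF, on opposite sides, and this holds for each list counted here. The elongation factor genes Eef1a1 and Eef2 rose with EGF and control siRNA by 0.24 ± 0.07 and 0.20 ± 0.05 (edgeR adjusted p = 0.00972 and 0.00496). With the Arid1a siRNAs and EGF their log2 changes were -0.05 ± 0.06 and -0.09 ± 0.04 (edgeR adjusted p = 0.522 and 0.116).

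Dedicated chaperones, which hold single ribosomal proteins before assembly, were higher with EGF in 8 of 10 genes with control siRNA and 7 of 10 with Arid1a siRNAs, with none lower. Among them Grwd1, whose yeast relative is a chaperone of Rpl3, rose by log2 0.61 ± 0.08 with control siRNA (edgeR adjusted p = 2.44e-05) and 0.54 ± 0.07 with Arid1a siRNAs (edgeR adjusted p = 5.4e-05), and Ltv1, which binds Rps3 during assembly in yeast, by 0.60 ± 0.08 (edgeR adjusted p = 2.81e-05) and 0.39 ± 0.07 (edgeR adjusted p = 0.000915). These are 80 and 70% of the list, against the same 16.8 and 13% of all genes. For the Arid1a siRNAs 1 was higher and 3 lower with EGF (30% lower, against 23.2%) and 1 and 1 without (10%, against 20.1%). Of 12 tested eIF3 subunits, which bind the small subunit at initiation, 7 were higher and 0 lower in each EGF comparison, and 5 and 4 were lower for the Arid1a siRNAs with and without EGF. These are 58.3% higher in each, against 16.8 and 13% of all genes, and 41.7 and 33.3% lower, against 23.2 and 20.1%.

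Of 13 genes on the way from mTORC1 to S6 kinase and LARP1, 5 were higher and 3 lower for the Arid1a siRNAs with EGF and 4 and 2 without EGF. The shares lower, 23.1 and 15.4%, did not exceed those of all genes, and the shares higher, 38.5 and 30.8%, stand against 23.7 and 18.8% of all genes. Eif4ebp1, an inhibitor of cap-dependent initiation that mTORC1 switches off, was lower, by log2 -1.42 ± 0.09 with EGF (edgeR adjusted p = 3.44e-08) and -1.38 ± 0.11 without (edgeR adjusted p = 4.27e-07). Rheb, the GTPase that activates mTORC1, was lower by log2 -0.32 ± 0.06 with EGF (edgeR adjusted p = 0.000312) and -0.27 ± 0.06 without (edgeR adjusted p = 0.00304). Tsc2, part of the complex that turns Rheb off, was higher by 0.35 ± 0.06 (edgeR adjusted p = 0.000132) and 0.32 ± 0.06 (edgeR adjusted p = 0.00106). With EGF, 3 were higher and 1 lower with control siRNA (23.1 and 7.69%, against 16.8 and 18.8% of all genes). With Arid1a siRNAs these were 2 and 0 (15.4 and 0%, against 13 and 10.4%).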

How the data were processed

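RNA was measured in 11 libraries made with a kit that does not mark the strand. The submitters' processing notes name mm9, TopHat2 2.1.1, HTSeq 0.9.1, Cuffdiff 2.2.1.5 and Cuffnorm 2.2.1.2, with no order of steps. The deposited count tables hold raw counts per gene, and the annotation and counting settings are not given in the sources used here. A deposited table holds FPKM, whose normalisation by the authors is not given there. Its 3 control columns match no single one of the 2 control libraries and were left out.

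Counts were analysed with edgeR 4.0.16 (R 4.3.3): filterByExpr (minimum count 10, minimum total 15), TMM factors, 4 group means over 11 libraries, quasi-likelihood tests, Benjamini-Hochberg adjustment over all 13343 genes, called under 0.05, two-sided. CPM per library are after TMM scaling unless a mean over libraries is given. Alternatives used DESeq2 1.42.0 and, for FPKM with pseudocounts 1 and 0.1, limma 3.58.1, for the 2 comparisons that need no control column (log2 of FPKM plus the pseudocount, which understates low genes). Sequence words came from GENCODE vM21 transcripts and start windows from RefSeq (GRCm38.p6), matched by symbol. Neither is the authors' build.

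The members and lists were chosen with earlier results of these data known. Named are the 3 largest rises and falls among called members of at least 8 CPM in each comparison, members with fixed roles, paralogs, and the 3 highest and lowest per length, and some are given only in counts or not reported here. Rps4x, Rpl32, Rps18, Rpl27, Rpl28, Rpl17 and other called members outside that rule were named after their values were seen. Replicate numbers come from the labels. Deviations of same-numbered libraries correlated at 0.16 to 0.38 over the 3 pairs of Arid1a siRNAs with EGF and control siRNA with EGF. Only these 2 groups were taken as paired in a fit of their own, a choice made from those values. Between other groups same-numbered libraries correlated at -0.46 to 0.39. Control siRNA without EGF correlated below 0 with both EGF groups, at -0.46 to -0.23. A shared replicate number is therefore not shown to mark a pair. Pairs of libraries of a group differed by a chi-square of 1.60 to 11.4 per degree of freedom, so none was a copy. The test was checked on simulated counts.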

Additional observations from a re-analysis of the deposited data

How the results depend on the processing

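Members called higher or lower are given per setting, with the share of all genes called the same way in the same fit in brackets. Upper-quartile factors gave 3 higher (23.5%) and 10 lower (15.2%) for the Arid1a siRNAs without EGF and 19 lower with EGF (19.6%, against 24.1% of members). Library totals alone gave 4 higher for EGF with control siRNA (13.9%), 2 higher for the Arid1a siRNAs without EGF (22.9%) and 19 lower with EGF (18.6%). Only the groups compared gave 0 higher for the Arid1a siRNAs without EGF (15.5%) and 1 lower for EGF with Arid1a siRNAs (10.5%). The replicate block over all libraries gave 4 higher for EGF with control siRNA (14.5%) and 0 higher (15.9%) and 13 lower (17.2%) for the Arid1a siRNAs without EGF, and with EGF 1 higher (22.4%) and 25 lower (21.6%). The block in the 2 groups with EGF alone, added after seeing the data, gave 3 (32.5%) and 48 (32.4%). FPKM gave 0 higher for the Arid1a siRNAs with EGF (24.2 and 24.4%) and 1 lower for EGF with Arid1a siRNAs (11.3 and 10.8%) at pseudocounts 1 and 0.1. Members of at least 10 CPM gave 3 of 51 higher for EGF with Arid1a siRNAs (13%). Without the 4 libraries highest in short transcripts, also added later, 24 were higher for EGF with control siRNA (18.9%), 2 for the Arid1a siRNAs without EGF (19.1%) and 15 for EGF with Arid1a siRNAs (17.3%), where 1 was lower (14.3%), and 1 was lower in the difference between EGF responses. Those 4 libraries also stood highest for the members in their groups, and 1 control siRNA library without EGF was left, the lower one. The counts of that fit therefore cannot decide whether members change, and no conclusion is drawn from them. Its median log2 changes are given with each comparison above. The cause of the shifts between settings was not tested.

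Leaving out each library in turn gave 0 to 1 higher and 14 to 38 lower for the Arid1a siRNAs with EGF (medians -0.32 to -0.17), and 0 to 1 higher and 4 to 25 lower without EGF (-0.29 to -0.0709). It gave 2 to 11 higher and 0 to 1 lower for EGF with Arid1a siRNAs (0.02 to 0.17), and 4 to 11 higher and 0 to 1 lower for EGF with control siRNA (0.07 to 0.25). The median difference between EGF responses ran from -0.12 to 0.0382, above 0 without control siRNA replicate 2 (0.0382), Arid1a siRNAs replicate 3 (0.02) or Arid1a siRNAs with EGF replicate 1 (0.0015). Leaving out 1 control siRNA library left 1, assumed to vary like the other groups. The 10 genes with most reads were then left out, any members among them included. The share of the remaining members was 1.11% with Arid1a siRNAs and EGF, 1.09% with Arid1a siRNAs without EGF, 1.19% with control siRNA and EGF and 1.14% with control siRNA without EGF. Leaving out a library gave shares of 1.198 to 1.29%, 1.17 to 1.27%, 1.32 to 1.38% and 1.21 to 1.37% in the same order. Among single genes 4470 values kept direction and call, 161 lost a call, 115 gained one, and 2 turned, EGF with Arid1a siRNAs: Rps28 (log2 -0.001267, FPKM with pseudocount 1) and Arid1a siRNAs without EGF: Rpl3l (log2 0.85, without the 4 libraries). No scaling moved the median of all genes by over 0.1. Depth limits members under 10 CPM, and near copies limit all counts.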
